A study of Homo sapiens with 6 samples.

Results

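The 2'-5'-oligoadenylate synthetase (OAS) family was followed through RNA-seq of HCT116 cells, a human colorectal carcinoma line. Its members were taken as OAS1, OAS2, OAS3 and OASL, matched by Ensembl identifier (ENSG00000089127, ENSG00000111335, ENSG00000111331 and ENSG00000135114), which makes 4 of the 62492 genes listed. They were chosen with their response to NONO knockdown already known. Their difference between the groups is therefore given as a description, with no test. All cells were HCT116 and all received siRNA at 20 nM by lipid transfection. The siControl group (labelled WT) and the siNONO group (labelled NONO knockdown) each had 3 libraries of polyA RNA, labelled Set 1, Set 2 and Set 3, so that each Set held 1 library of each group. The comparison asks what depletion of NONO, an RNA-binding protein of the nuclear bodies called paraspeckles, does to the transcriptome. A single siNONO duplex was used, so in these libraries NONO loss cannot be told apart from effects of that duplex on its own. The paper also used NONO knockout cells, which are not part of these data. There it reported, by qPCR, selected genes of the type I interferon response. Their expression was lower with wild-type NONO put back than in knockout cells or with a mutant NONO.

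OAS1, OAS2 and OAS3 are enzymes that bind double-stranded RNA and then join ATP into short 2'-5'-linked oligoadenylates (2-5A). 2-5A is a messenger that starts the breakdown of RNA in the cell. OAS1 has a single catalytic unit, and OAS2 and OAS3 carry repeats of it. OASL has the same fold but makes no 2-5A. It ends in ubiquitin-like domains and is known to raise the activity of the RNA sensor RIG-I and to lower that of the DNA sensor cGAS. The genes are classic interferon-stimulated genes. Interferon receptors signal through JAK1 and TYK2 to a complex that holds STAT2 and IRF9 and binds interferon-stimulated response elements in their promoters. IRF1, IRF3 and IRF7 bind related elements.

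In the GENCODE annotation of GRCh37, OAS1 (113343661 to 113371024), OAS3 (113375856 to 113414265) and OAS2 (113416200 to 113449528) lay head to tail on the plus strand of chromosome 12. The cluster spanned 106 kb, with 4.83 kb between OAS1 and OAS3 and 1.93 kb between OAS3 and OAS2. OASL lay 8.01 Mb further along the same chromosome, on the minus strand, from 121455566 to 121477049.

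Promoters of OAS1 and OAS3, 2 of the 4 members, were present in the RefSeq table. OAS2 and OASL were not. The 250 bases before the start of each are shown because a response element there is the part that interferon-activated factors read. OAS1 is chr12:112906712-112906961 and OAS3 is chr12:112938224-112938473, both on the plus strand of GRCh38.p14, a later build than the one used for expression. Capitals mark matches to 2 forms of the response element, searched on both strands. Both end in GAAA after a spacer of any 2 bases, and begin with GAAA in the first form and GGAA in the second.
OAS1: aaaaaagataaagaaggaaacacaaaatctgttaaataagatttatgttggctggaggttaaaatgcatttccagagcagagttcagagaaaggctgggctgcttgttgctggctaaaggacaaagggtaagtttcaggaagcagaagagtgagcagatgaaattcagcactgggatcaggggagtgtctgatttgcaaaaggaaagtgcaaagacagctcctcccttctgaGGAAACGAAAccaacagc
OAS3: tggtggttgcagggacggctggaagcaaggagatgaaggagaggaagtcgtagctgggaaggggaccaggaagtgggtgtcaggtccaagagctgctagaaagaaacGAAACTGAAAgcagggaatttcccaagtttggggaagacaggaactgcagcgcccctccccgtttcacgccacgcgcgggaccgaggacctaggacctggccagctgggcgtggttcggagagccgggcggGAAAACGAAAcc
OAS1 held 1 match, GGAAACGAAA, from 18 to 9 bases before its start. OAS3 held 2 matches, GAAAACGAAA from 12 to 3 bases and GAAACTGAAA from 143 to 134 bases before its start. None of these matches overlapped another. Of 35116 promoters of the same length, 3.02% held the first form, 2.41% held the second and 5.24% held either. These matches describe the sequence, and no binding was measured.

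Total estimated counts ran from 21765393 to 32659002 per library. NONO, the targeted gene, had 496, 495 and 516 CPM (counts per total count of the library, the total scaled by TMM) in siControl Sets 1, 2 and 3 and 89.5, 95.5 and 100.4 CPM in siNONO. The labelled cell type was checked against its markers. Of 6 epithelial markers, 5 reached 1 CPM, all but VIL1, and their summed level was 2290 to 2350 CPM in siControl and 2240 to 2440 CPM in siNONO. Of 7 leukocyte markers, only CD68 reached 1 CPM. Their summed level was 2.45 to 2.87 CPM in siControl and 5.10 to 6.83 CPM in siNONO. PTPRC, which marks leukocytes in general, and CD3E, which marks T cells, had 1 count each in siControl and 0 in siNONO. CD68 went from 1.96 to 5.21 CPM, and its part in the OAS values was not tested. Of 4 fibroblast markers, COL1A1 reached 1 CPM, and the list summed to 35.8 to 41.8 CPM in siControl and 36.9 to 43.6 CPM in siNONO. DCN had 2 counts in siControl and 0 in siNONO. In bulk RNA a share of cells that express a gene and the RNA per cell cannot be told apart.

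All 4 OAS genes were higher in siNONO than in siControl, and for each the lowest siNONO library lay above the highest siControl library. The same held for 23.9% of the 17000 genes tested. All 4 were also past an adjusted p of 0.05, as were 46.6% of all genes tested in either direction and 23.2% in the higher direction. Since the members were chosen on this contrast, nothing is read from these counts. What differed among them was the size of the difference and the level from which it started. OAS2 entered the test through the siNONO libraries alone, as none of its siControl libraries reached the count filter, which stood at 0.356 CPM, and the other members reached it in all 6 libraries.

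OAS1, which makes 2-5A from its single unit, was nearly silent in siControl. Its counts in Sets 1, 2 and 3 were 17, 11 and 24 with siControl and 910, 781 and 1026 with siNONO. As CPM these were 0.516, 0.402 and 1.09 in siControl and 31.8, 28.1 and 36.7 in siNONO. The highest siControl value and the highest siNONO value both came from Set 3, and the groups were far apart. The log2 fold change of OAS1 was 5.64 (standard error 0.132), about 50.0-fold, and was ranked 8 of 17000 genes tested and 1 among the 13340 whose log2 CPM averaged 1 or more. Within Sets the CPM ratio was 61.6, 69.9 and 33.6, with the smallest ratio in Set 3, whose siControl library had the highest level. The few reads in siControl and the spread between Sets both limit the precision here. Summed counts of 2717 against 52 gave a ratio of 50.9, with an exact 95% interval from 38.7 to 68.4 that covers counting error only. The 95% interval from the standard error of the fit was narrower, from 41.0-fold to 61.0-fold, so that standard error is too small for OAS1.

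OASL, the member without synthetase activity, started higher and moved less. Its counts were 118, 90 and 89 in siControl and 1702, 1389 and 1932 in siNONO, or 3.58, 3.29 and 4.06 CPM against 59.5, 49.9 and 69.1 CPM. Its log2 fold change was 4.02 (standard error 0.0671), ranked 14 of 17000. The ratio within Sets was 16.6, 15.2 and 17.0, the narrowest relative span of any member.

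OAS3, the long member with repeated units, was the only one well expressed before knockdown. Its counts were 2901, 2645 and 2274 in siControl and 12334, 10771 and 13847 in siNONO. This corresponded to 88.1, 96.6 and 103.6 CPM in siControl and 431, 387 and 495 CPM in siNONO. OAS3 had the smallest log2 fold change of the family, at 2.18 (standard error 0.0484), or 4.55-fold. It ranked 56 of 17000. Ratios within Sets were 4.90, 4.01 and 4.78. On the scale of CPM it had the largest gain, 342 CPM against 55.9 for OASL, 31.5 for OAS1 and 1.85 for OAS2.

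OAS2, an enzyme with a repeated unit like OAS3, stayed rare in both groups. The siControl libraries held 5, 0 and 2 of its counts, against 45, 47 and 71 in the siNONO libraries. In CPM the siNONO libraries had 1.57, 1.69 and 2.54, and the siControl libraries had 0.152, 0 and 0.0911. Its log2 fold change of 4.41 carried the widest standard error of the family, 0.489. The ratio was 10.4 in Set 1 and 27.9 in Set 3. In Set 2, where siControl had no count, it was at least 15.4-fold higher against a floor of 3 counts in that library. Summed counts of 163 against 7 gave a ratio of 22.7, with an exact 95% interval from 10.8 to 57.4 for counting error. Without siControl replicate 1, which holds 5 of those 7 counts, the log2 fold change of OAS2 became 5.53, as it did without siNONO replicate 1, its partner in the block.

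**Figure D1:**
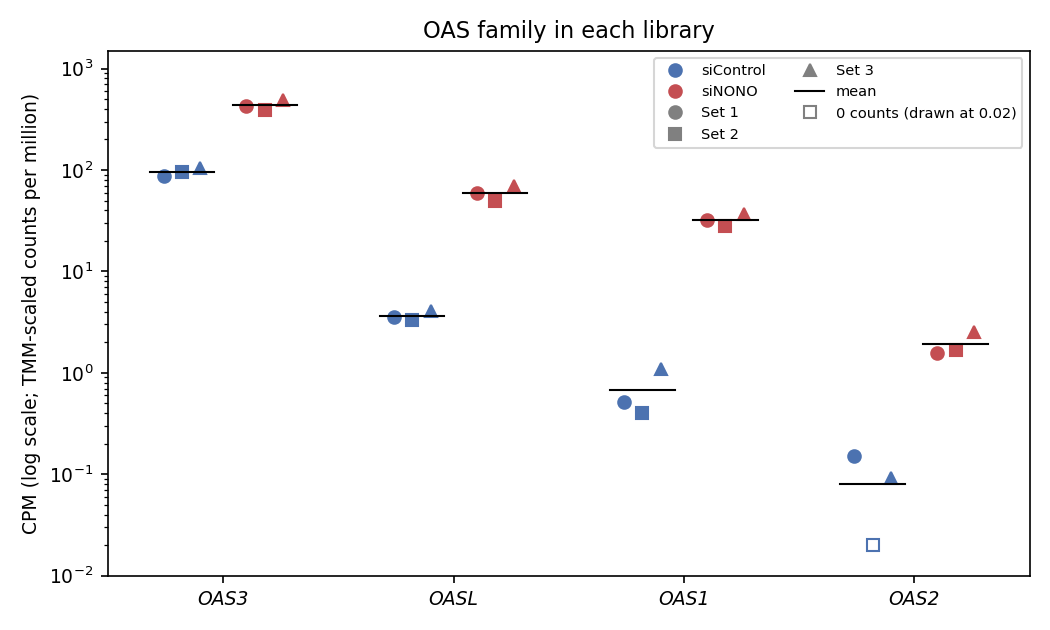
Level of each OAS gene in every library, in CPM on a log scale, with blue for siControl, red for siNONO, a marker shape per Set and a black line at the group mean; the open square stands for 0 counts. OAS1 goes from below 1.10 to at least 28.1 CPM and OAS3 from about 96.1 to 438 CPM, and the groups lie apart for every gene.

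The median log2 fold change of the 4 members was 4.22, and that of all genes tested was -0.0048, with a 99th percentile of 1.32. The libraries with the highest and lowest CPM were then compared among members. In siNONO, OAS1, OAS3 and OASL were each highest in Set 3 and lowest in Set 2, and OAS2 was highest in Set 3 and lowest in Set 1. In siControl, OAS1, OAS3 and OASL were highest in Set 3 and OAS2 in Set 1, while OAS1, OAS2 and OASL were lowest in Set 2 and OAS3 in Set 1, so the members did not share 1 order. On the TPM scale OAS1 and OASL were highest in siControl Set 1, at 1.38 and 2.06. The level of NONO left in siNONO was likewise highest in Set 3, at 100.4 CPM against 89.5 and 95.5, and its part in these differences was not tested.

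Levels can be compared between genes only per length, so TPM (transcript abundance, which RSEM scales for transcript length and library size) was used for the make-up of the family. In siControl the order was OAS3 at 23.6 ± 1.92 TPM, OASL at 1.95 ± 0.0987, OAS1 at 0.927 ± 0.482 and OAS2 at 0.0733 ± 0.102 (SD, n = 3 each). No neighbours in this order overlapped between libraries. In siNONO OAS3 stayed first at 104.8 ± 16.4 TPM and OAS2 last at 1.02 ± 0.326 TPM, while OAS1 at 33.9 ± 6.71 and OASL at 33.7 ± 7.56 TPM did not differ beyond their spread (SD, n = 3 each). The TPM of OAS1 was 0.670, 0.221 and 0.521 times that of OASL in siControl Sets 1, 2 and 3, and 1.01, 1.04 and 0.983 times in siNONO.

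Together the 4 genes gave 26.6 ± 1.66 TPM in siControl and 173 ± 30.8 TPM in siNONO (SD, n = 3), a ratio of 6.53. The mix shifted as well. OAS3 made up 85.7%, 91.0% and 89.8% of the summed TPM in siControl and 60.8%, 61.6% and 59.2% in siNONO, with no overlap. OAS1 went from 1.62% to 5.44% of the sum in siControl to 19.1% to 19.9% in siNONO, and OASL from 6.60% to 8.12% to 18.4% to 20.3%. OAS2 was below 1% in every library. The family in siNONO was still mostly OAS3, with nearly all of the rest split evenly between OAS1 and OASL.

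**Figure D2:**
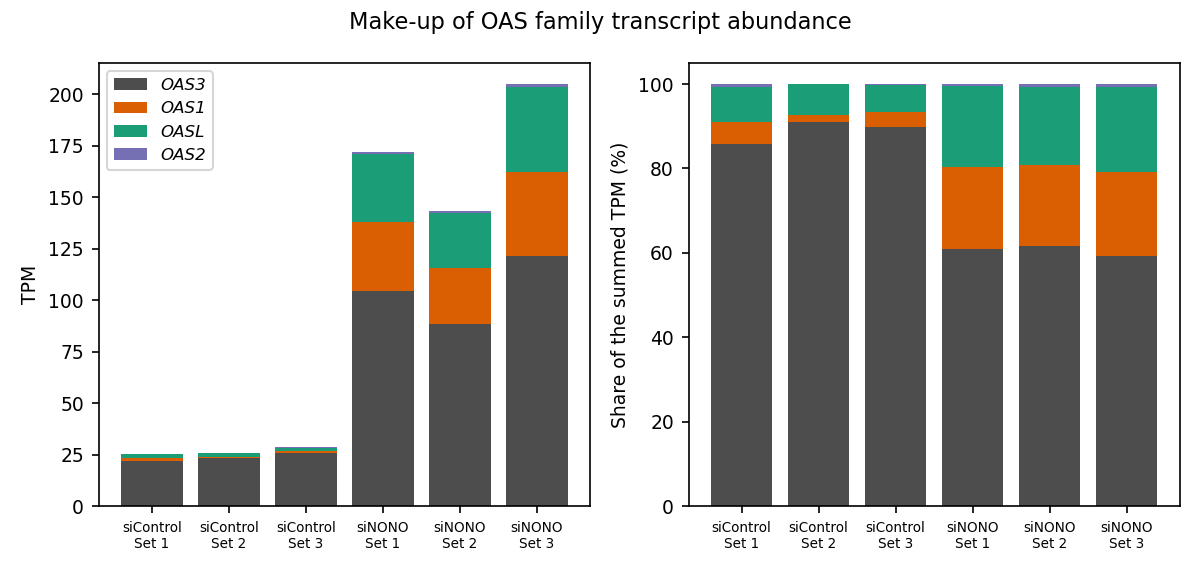
Summed TPM of the OAS family per library, as TPM on the left and as percent of the sum on the right, with 1 colour per gene and both axes starting at 0. The siNONO bars reach 173 TPM on average against 26.6 in siControl, and the dark OAS3 part falls from 88.9% to 60.5% of the bar on average.

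TPM rests on the mean transcript length that RSEM estimated for each gene in each library, which moves with the mix of isoforms it assigned. For OAS1, with 11 transcripts in the authors' annotation, that length was 734, 1524 and 1793 bases in siControl, where at most 24 counts stood behind it, and 1484, 1531 and 1397 bases in siNONO. For OAS2 it ran from 1362 to 4622 bases in siControl and from 2155 to 3384 in siNONO. OAS3 was the steadiest, at 5872 to 5976 bases in siControl and 5626 to 5887 in siNONO, and OASL had 2595 to 3266 and 2413 to 2654 bases. The ranges of the groups overlapped for every member. With 1 effective length per gene in all libraries, a calculation added after the data were seen, OAS3 made up 89.3% and 60.3% of the family in siControl and siNONO, and the TPM ratio between groups was 45.4 for OAS1 in place of 36.6.

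Related sequence among family members could let RSEM divide reads between them, which leaves fractional counts. Fractional counts were present in 6832 to 7357 genes per library, but all 4 OAS genes had whole counts (within 0.001) in all 6 libraries. An antisense long non-coding RNA, ENSG00000257452, is annotated over the cluster on the opposite strand from 113345433 to 113455556. It had 0 counts in every library, as did the pseudogene OASL2P next to OASL.

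Genes that limit or end the 2-5A signal made up the first list of pathway genes. None of its 3 genes was called (an adjusted p of 0.05 or lower, from edgeR's quasi-likelihood test and Benjamini-Hochberg adjustment), and none had an unadjusted p under 0.05, beside 46.6% called among all genes tested. DESeq2 and limma called none either. ABCE1, a ribosome recycling factor that is also known to hold back the 2-5A response, had 273, 270.4 and 235 CPM in siControl and 280, 265.5 and 238 CPM in siNONO. The groups overlapped, and ABCE1 had a log2 fold change of 0.0093 (95% interval -0.06 to 0.07). PDE12, a phosphodiesterase that degrades 2-5A, had -0.02 (-0.11 to 0.07), and AKAP7, which carries a related phosphodiesterase domain, had 0.12 (-0.20 to 0.44).

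The factors that carry an interferon signal to the OAS promoters were the second list. Of 11 genes, all tested, 5 rose, 1 fell and 5 were not called by edgeR's quasi-likelihood test, or 54.5% called against 46.6% of all genes tested. The highest were IRF7, from 6.25 ± 0.0047 to 55.9 ± 10.1 CPM, and IRF9, from 13.9 ± 1.12 to 57.5 ± 3.10 CPM (SD, n = 3 each). Their log2 fold changes were 3.14 and 2.05. STAT2, the partner of IRF9 in that complex, rose by 0.92, IRF1 by 0.31 and the kinase TYK2 by 0.20 on the log2 scale. IFNAR1, a subunit of the type I interferon receptor, fell by 0.27 on that scale (adjusted p = 0.000311, edgeR). Receptor subunits IFNAR2, IFNLR1 and IL10RB, the kinase JAK1 and IRF3 were not called, with log2 fold changes of 0.12, 0.02, 0.08, 0.02 and 0.03. TYK2 and IRF1 were no longer called by limma on log2(TPM + 1), at 0.06 (adjusted p = 0.535) and 0.15 (adjusted p = 0.284).

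The third list held other sensors of double-stranded RNA and the partners of OASL. Of 9 genes, 7 had enough counts, and 6 of these rose and 1 was not called by edgeR's quasi-likelihood test, 85.7% against the same 46.6%. DDX58, which encodes RIG-I, rose from 18.7 ± 2.51 to 134 ± 7.79 CPM (SD, n = 3), with a log2 fold change of 2.82. IFIH1, which encodes the sensor MDA5, rose by 2.61 and DHX58, a regulator of both, by 1.74. TLR3, an endosomal sensor, rose by 1.60, EIF2AK2, which encodes the kinase PKR, by 1.56, and ADAR, which edits double-stranded RNA, by 0.72. MAVS, the adaptor below RIG-I and MDA5, was not called, with a log2 fold change of 0.0011 and 368 ± 14.5 against 368 ± 8.91 CPM (SD, n = 3). The gene of cGAS (MB21D1) had 3 counts in siControl and 1 in siNONO, and ZBP1 had 0 and 1, so neither was tested. Over the 3 lists, 11 of 21 tested genes rose and 1 fell, and their median log2 fold change was 0.20. Among all genes tested 23.2% were called higher and 23.4% lower. These lists were drawn up with earlier results of the data known, so their shares are not read as enrichment. Of 17 of the 23 genes with a promoter in the RefSeq table, IFIH1 and DDX58 held a match to either element. Among all 35116 promoters 5.24% held either. NONO, the targeted gene, held 1 match, to the second form.

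**Figure D3:**
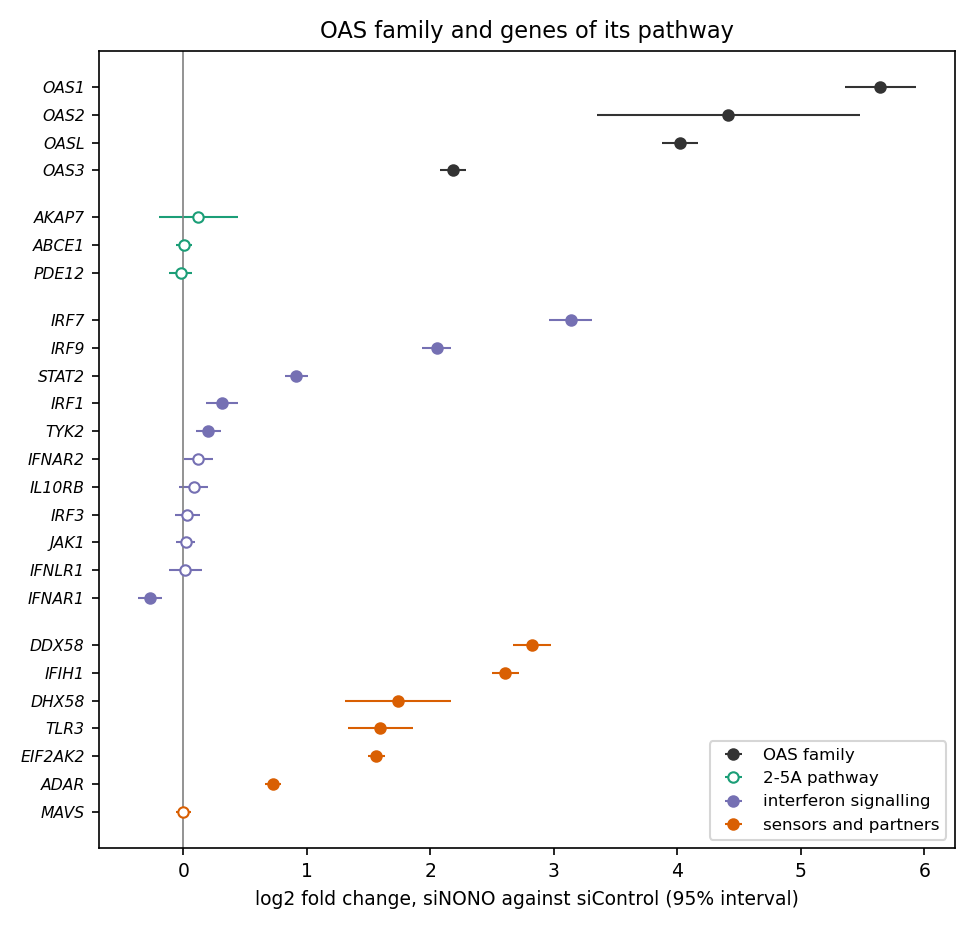
Log2 fold change of the OAS genes and of 21 tested pathway genes with 95% intervals from the fit across all genes; open points were not called, and the OAS points carry no test. The OAS genes lie between 2.18 and 5.64, the 3 genes of the 2-5A list lie from -0.02 to 0.12, and IRF7, DDX58 and IFIH1 lead the other lists. The intervals drawn for OAS1, OAS2 and OASL are too narrow, being narrower than those for counting error alone.

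The OAS loci were then set beside their surroundings. Within 500 kb of the cluster or of OASL, 29 protein-coding neighbours were tested, and 7 rose, 7 fell and 15 were not called by edgeR's quasi-likelihood test. That is 48.3% called, near the 46.6% of all genes tested. Their log2 fold changes ran from -0.89 to 0.49 with a median of -0.02. Every tested neighbour lay below OAS3, the lowest OAS gene, as did nearly all genes, since OAS3 ranked 56 of 17000. The members were chosen on this contrast, so nothing is read from that. RPH3A, 6.97 kb before OAS1, had 0.777 CPM in siControl and 0.415 in siNONO and was not called (log2 fold change -0.89, standard error 0.353, adjusted p = 0.0563, edgeR). DTX1, 45.0 kb after OAS2, had a log2 fold change of -0.07. P2RX7, 93.6 kb from OASL, fell by 0.42 on the log2 scale (adjusted p = 0.0378, edgeR). Near the cluster RPL6, SDSL and LHX5 rose, by 0.15, 0.40 and 0.49, and RITA1 and TPCN1 fell, by log2 fold changes of -0.20 and -0.29. Near OASL POP5, P2RX4, CAMKK2 and RNF34 rose by 0.11 to 0.21, and RNF10, UNC119B, SPPL3 and KDM2B fell, with log2 fold changes from -0.28 to -0.17. The number called was the least settled of these counts, at 7 without siControl replicate 2, 9 without siNONO replicate 2, 8 with DESeq2 and 5 with limma on log2(TPM + 1).

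**Figure D4:**
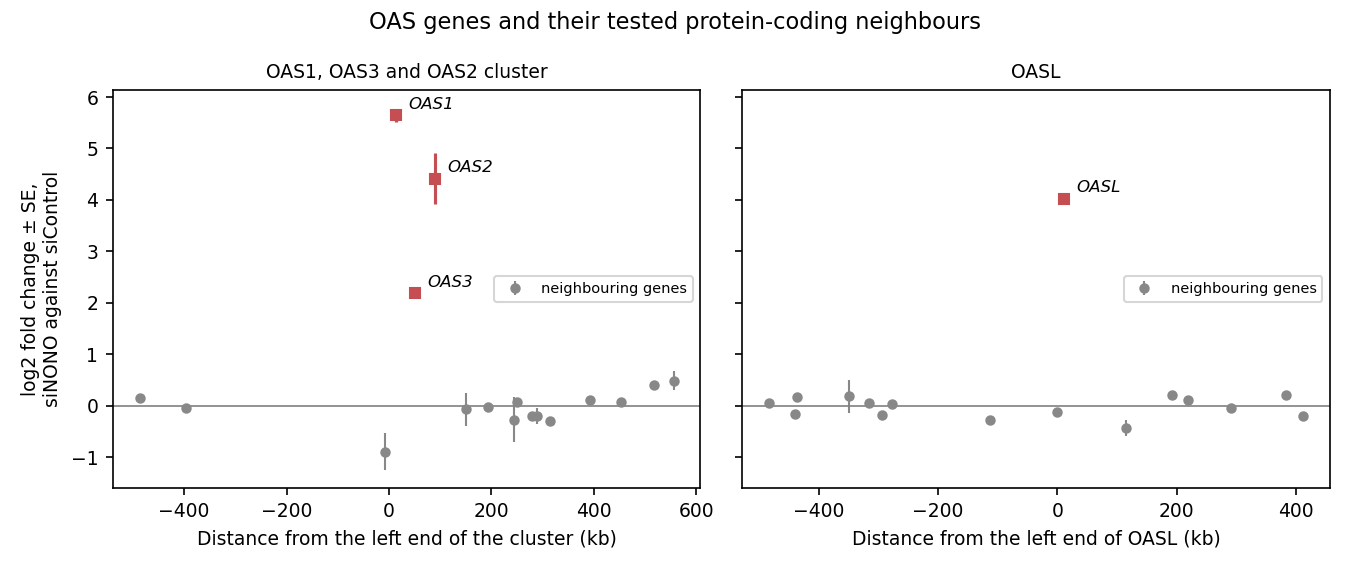
Log2 fold change (with standard error) of the OAS genes, in red, and of their tested protein-coding neighbours, in grey, against distance in kb from the left end of the cluster or of OASL. Grey points stay between -0.89 and 0.49 on both sides, and the red points stand at 2.18 to 5.64.

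The genes whose levels followed the family most closely were found by centring each gene's log2 CPM on its own mean over the 6 libraries and taking the root mean square difference from the mean OAS profile. Among 13337 candidates, IFI6 was nearest, at 0.140 on the log2 scale, followed by IFI27 (0.159), IFI44 (0.294), IFIT1 (0.311) and IFIT3 (0.324). IFI6 went from 12.3 to 191 CPM and IFI27 from 1.80 to 27.6 CPM. All 5 are known as interferon-stimulated genes. For single members the nearest gene was IFI6 for OASL (0.0967) and for OAS2 (0.421), HERC5, which encodes a ligase for ISG15, for OAS3 (0.0752), and IFI44L for OAS1 (0.678). OAS3 and HERC5 had log2 fold changes of 2.18 and 2.21. Of the 4 members, OAS1 had the largest distance to its nearest gene. It ranked 1 of 13340 by log2 fold change, so no candidate had as large a group difference, and nothing is read from that distance. The log2 CPM of these profiles used a prior count of 2. These are descriptions over 6 libraries that share the group difference.

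**Figure D5:**
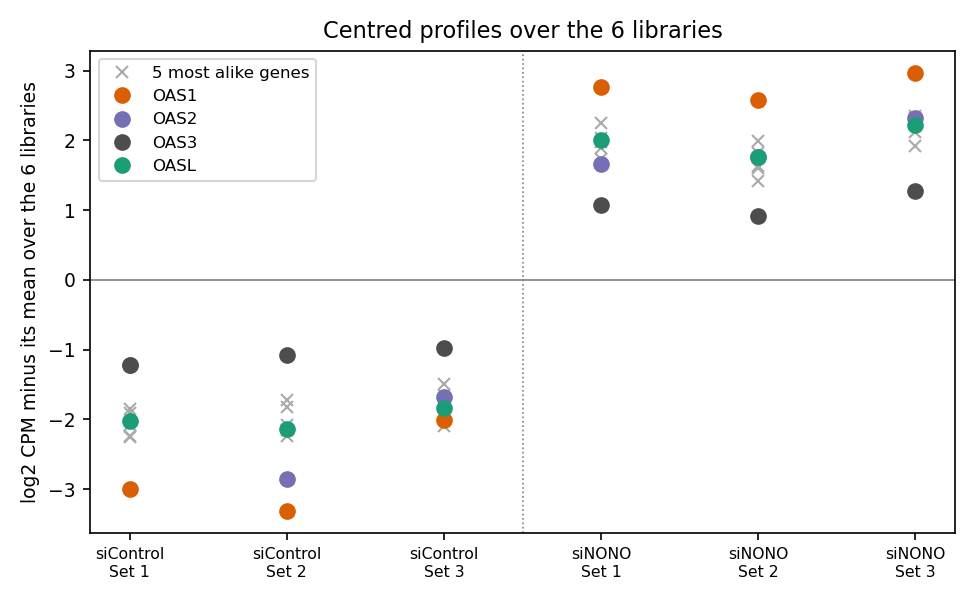
Centred log2 CPM of the 4 OAS genes (filled circles) and of the 5 most alike genes (grey crosses) in each library. In siControl the OAS genes lie from -3.31 to -0.98 and in siNONO from 0.92 to 2.97, with OAS1 farthest from 0 and OAS3 nearest in siNONO.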

How the data were processed

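PolyA RNA of HCT116 cells was sequenced from 3 siControl and 3 siNONO libraries, labelled by Set. After quality trimming by sickle, the authors used STAR for alignment to GRCh37, with a GENCODE annotation, and RSEM (version 1.3.1) for quantification. They deposited, per gene, the estimated count, which is not normalized, the TPM, which RSEM scales for length and library size, and the mean transcript length. Column names, not stated units, identify these values. The 62492 identifiers were matched to symbols for 99.6% of genes.

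Estimated counts were rounded and tested with edgeR (version 4.0.16, quasi-likelihood test in its edgeR 3 form), with TMM scaling, filterByExpr, the Set as a block (the methods state a batch covariate) and Benjamini-Hochberg adjustment over 17000 genes, at a threshold of 0.05. Each standard error was derived from the F value of that gene. For OAS1, OAS2 and OASL it is too small, as the interval it gave was narrower than the one for counting error alone. The biological coefficient of variation was 3.51%. The test was checked on simulated counts. Nothing in the labels beyond biological replication says how the Sets were grown, so p-values measure the spread between these libraries. Every replicate pair differed by more than sampling noise.

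The members and lists were chosen with earlier results of these data known. Named genes were NONO, the members, the listed pathway genes, neighbours that were called or nearest, and the genes of most similar profile (average log2 CPM of at least 1). Some genes of the lists and a neighbour are not reported here. Positions came from a GENCODE release on GRCh37 that is later than the authors' and promoters from RefSeq (GRCh38.p14). Alternatives were other scalings, filters and prior counts, no block, DESeq2 (version 1.42.0), limma (version 3.58.1) on log2(TPM + 1), the ratio of mean TPM, and each library left out. Intervals on summed counts cover counting error only.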

Additional observations from a re-analysis of the deposited data

How the results depend on the processing

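The members stayed higher in siNONO under all 16 alternatives that gave a value. The log2 fold change ran from 4.19 to 6.01 for OAS1, 0.91 to 5.53 for OAS2, 2.09 to 2.29 for OAS3 and 3.54 to 4.12 for OASL, and OAS2 was not kept by the filter of 10 counts in every library. The family median of 4.22 became 3.83 with a prior count of 2 and 2.81 with limma on log2(TPM + 1), a scale that by its construction compresses low genes, and ran from 3.99 to 4.75 with 1 library left out. The number of neighbours called, 14, ran from 7 to 14 with 1 library left out and was 8 with DESeq2 and 5 with limma. The cause was not tested. Of all genes, 7924 were called, 5206 with DESeq2 and 4206 with limma, of which 1253 were higher and 2953 lower against 3939 and 3985. The median of all genes shifted to -0.07 on that scale. The pathway lists gave 12 calls in every fit but limma, which made 10.

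Set numbers did not clearly pair the libraries. The correlation of deviations from group means, over 13340 genes, was 0.220, 0.0612 and 0.278 within Sets 1, 2 and 3, and siNONO Set 2 correlated better with siControl Set 1 (0.0846). With no replicate block 6164 genes passed, the pathway count stayed at 12, the neighbours fell to 12 and the family median was 4.24.

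Among the tested pathway genes that were not called, 6 changed sign around 0, none with an adjusted p of at most 0.05. AKAP7, IFNAR2 and IL10RB kept their sign. With 1 library left out, ABCE1 ran from -0.0020 to 0.0397, PDE12 from -0.0462 to 0.0304, IFNLR1 from -0.0107 to 0.0411, JAK1 from -0.0079 to 0.0641, IRF3 from -0.0180 to 0.0817 and MAVS from -0.0052 to 0.0179. ABCE1 was -0.0063 and MAVS -0.0145 on library size alone, and on log2(TPM + 1) JAK1 was -0.14, IRF3 -0.083 and MAVS -0.089. Few siControl reads limit the sizes given for OAS1 and OAS2.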
